A study of Mus musculus with 16 samples.

Results

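The Hedgehog pathway genes are a set of 9 genes, Shh, Ihh, Ptch1, Hhip, Smo, Sufu, Gli1, Gli2 and Gli3, taken by gene symbol from the count tables of KPC1199 cells, where the tables list 55738 and 56980 features. KPC1199 is a mouse pancreatic ductal adenocarcinoma (PDAC) line from the KPC model, which carries Pdx-cre and mutant Trp53 (R172H) among its alleles, so every library shared them. The set was chosen by measured values of these same libraries, because some of its genes differed between the genotypes, and the members' differences are therefore a description. No p is given for a member, and its side of the threshold in the fit over all genes is stated only to place it and supports nothing. Cells received lentiviral CRISPR-Cas9 with 1 guide against Sin3B (Sin3Bsg1, labelled as the Sin3B knockout) or with a non-targeting control guide (sgCtrL, labelled WT), under puromycin selection, and the sources used here name no single-clone step. RNA-seq was done on 2 libraries per genotype in the untreated experiment. In the IFNγ experiment it was done on 3 libraries per genotype without IFNγ and on 3 with IFNγ at 10 ng/ml for 24 h. Nothing in the labels says that the replicates came from separate cultures, so the spread between them may be technical.

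Hedgehog ligands (Shh, Ihh and Dhh) bind the receptor Patched and relieve its block on Smoothened, which then signals through the primary cilium to the GLI transcription factors. Gli1 acts as an activator and is itself a target of the pathway, Gli2 acts mostly as an activator, and Gli3 is processed mostly into a repressor. Sufu restrains the full-length GLI proteins and favours the repressor form of Gli3. In PDAC the tumor cells are known mainly as the source of ligand, and the fibroblasts of the stroma as the cells that respond to it. Hhip and Ptch1 both bind ligand and limit the signal, and both, like Gli1, are known targets of the pathway.

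The sequence of the guide target and the start regions of the members that differed most are shown here, the first because it defines the edited cells and the others so that the letters of these windows can be read. The Sin3Bsg1 target of 20 bases matched the GRCm39 genome at 1 site, on the plus strand in the coding part of exon 1 of 19 of Sin3b (chr8:73449982-73450001), and is printed 5′ to 3′ with the adjoining PAM in capitals.
Sin3Bsg1 target: tggctcccgctggggtcgttCGG

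In GENCODE vM39 on GRCm39, Hhip lies at chr8:80692480-80784658 on the minus strand and Gli3 at chr13:15637809-15904611 on the plus strand. The 250 bases before the RefSeq start of each, on build GRCm38.p6, are given on the gene's own strand with CG dinucleotides in capitals (chr8:80058009-80058258, minus strand, for Hhip and chr13:15463473-15463722, plus strand, for Gli3).
Hhip promoter: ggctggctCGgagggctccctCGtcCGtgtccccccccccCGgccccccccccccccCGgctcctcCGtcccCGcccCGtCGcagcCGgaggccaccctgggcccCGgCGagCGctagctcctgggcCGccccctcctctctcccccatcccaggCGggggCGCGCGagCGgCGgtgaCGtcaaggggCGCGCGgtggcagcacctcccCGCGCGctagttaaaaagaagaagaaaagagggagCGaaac
Gli3 promoter: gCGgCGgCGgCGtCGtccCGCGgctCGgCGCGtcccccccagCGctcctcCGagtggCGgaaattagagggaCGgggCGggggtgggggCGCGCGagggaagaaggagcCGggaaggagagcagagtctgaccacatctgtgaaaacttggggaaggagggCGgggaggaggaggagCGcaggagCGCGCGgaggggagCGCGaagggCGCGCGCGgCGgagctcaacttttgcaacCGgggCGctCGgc

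Both stretches are rich in CG, with 28 CG dinucleotides in the Hhip stretch and 34 in the Gli3 stretch. RefSeq promoters of 300 bases (250 before to 50 after the start) were found for 7 of the 9 members, without Gli1 and Shh. The letters of the GLI consensus site, TGGGTGGTC on either strand, occurred in 0 of these 7 promoters and in 0.253% of all 32851 promoters. Its shorter core TGGGTGG, which the full site contains, was in 0 of the 7 and in 9.30% of all promoters, so the letters are absent from these windows. No binding was measured.

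Sin3b (chr8:73449880-73484833 on GRCm39) was checked first, since the guide is aimed at it. CPM values are counts scaled to a common library size. Sin3b had 88.6 and 83.4 CPM in sgCtrL of the untreated experiment and 36.5 and 34.1 CPM in Sin3Bsg1. It was also lower in each Sin3Bsg1 library of the IFNγ experiment, with 38.6 to 39.4 CPM against 88.5 to 95.6 without IFNγ and 33.6 to 37.7 against 80.4 to 84.3 with IFNγ. The log2 difference was -1.28, -1.24 and -1.22 in the 3 comparisons, so that Sin3b transcript remained in the edited cells. Libraries held 29683181 to 32311721 counts in the untreated experiment and 18128055 to 27056903 in the IFNγ one. Replicate 1 of sgCtrL with IFNγ stood apart from its group, with a root mean square log2 difference of 0.257 and 0.242 to replicates 2 and 3, which differed from each other by 0.118. The same held less far for replicate 1 of Sin3Bsg1 with IFNγ (0.202 and 0.214, against 0.112). Of 6 markers of ductal tumor cells all were detected in each group, Epcam at group means of only 4.49 to 14.8 CPM, and all 6 immune markers had 3 counts or fewer in each library.

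Across the set, levels were compared between genes as TPM, which divides by gene length. Sufu and Smo were the most abundant members. In sgCtrL without IFNγ Sufu had 73.1 to 77.1 TPM, Smo 55.8 to 57.7 TPM and Ptch1 13.1 to 14.5 TPM. Hhip followed with 4.87 to 5.42 TPM and Gli3 with 2.41 to 2.83 TPM, and these 5 genes did not overlap one another. Gli1 (0.206 to 0.695 TPM) and Ihh (0.386 to 0.476 TPM) overlapped. In sgCtrL of the untreated experiment the order of the first 3 was the same, but Gli3 (0.786 and 1.07 TPM) stood above Gli1 (0.375 and 0.430 TPM), and Hhip (0.259 and 0.308 TPM) came below both and overlapped Ihh (0.141 and 0.308 TPM). The cells thus held transcripts of the receptor, of Smo and of Sufu, and few or none of Shh, Ihh, Gli1 and Gli2.

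**Figure D1:**
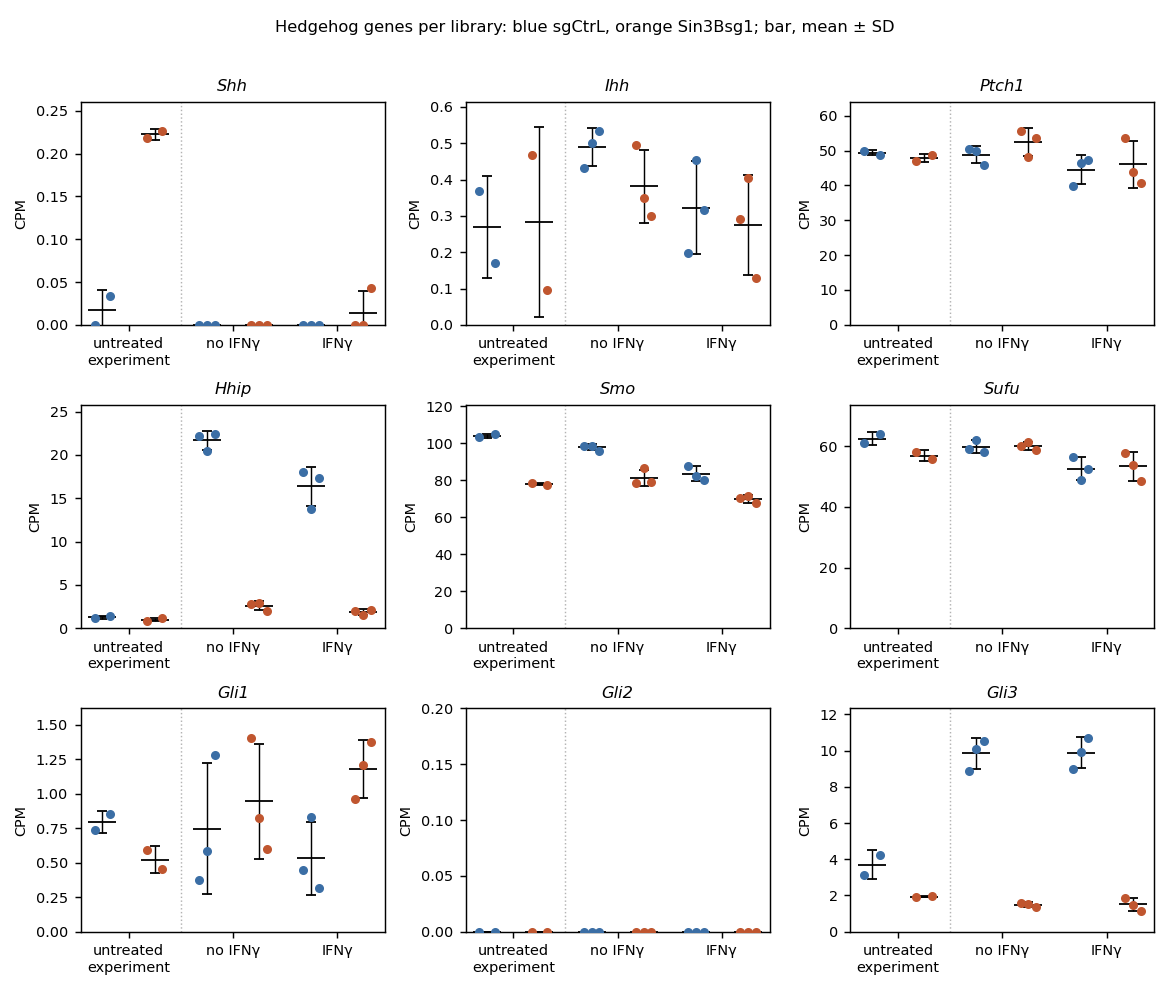
Each panel plots 1 member as CPM (vertical axis, from 0) in the 16 libraries, with sgCtrL in blue, Sin3Bsg1 in orange, and a bar at the mean ± SD of each group of 2 (untreated experiment) or 3 libraries. Hhip and Gli3 were high only in the sgCtrL libraries of the IFNγ experiment, at 13.8 to 22.4 and 8.90 to 10.7 CPM, while Ptch1 lay between 39.8 and 55.7 CPM in all libraries and Gli2 was at 0.

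The question asked of each member was whether it differed between the genotypes in each experiment and with against without IFNγ. The filter on low counts left 7 of the 9 members in the untreated experiment, and 3 of the 7 were lower and 0 higher in Sin3Bsg1 at an adjusted p under 0.05. Over all 14589 genes tested, 31.1% passed this threshold, 15.1% higher and 16% lower. The groups did not overlap for 6 of the 7 members, and for 63.3% of all genes. Without IFNγ in the IFNγ experiment, 3 of 7 members tested were lower and 0 higher, where 17.2% of 14913 genes passed (7.89% higher and 9.33% lower), and 3 members did not overlap, against 39.2% of genes. With IFNγ, 3 of 7 were lower and 0 higher, where 16.5% of genes passed (8.62% higher and 7.90% lower), and 4 did not overlap, against 30.4%. The members lower past the threshold were Smo, Gli3 and Sufu in the untreated experiment, while those of the IFNγ experiment were Hhip, Gli3 and Smo, both without and with IFNγ. Since the members were chosen for such differences, nothing is read from these counts.

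**Figure D2:**
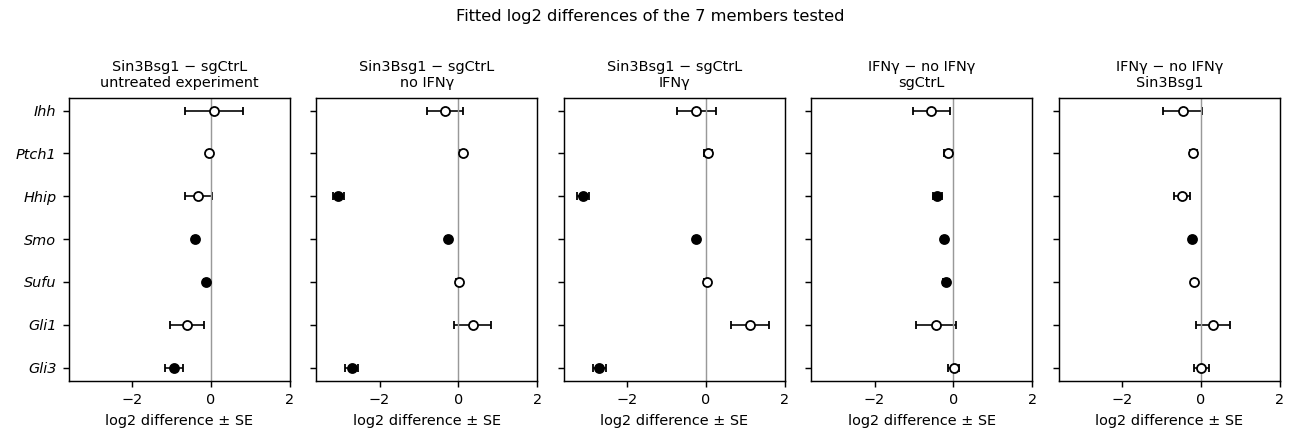
The fitted log2 difference of each of the 7 members tested (horizontal axis, ± SE) is plotted for the 3 comparisons of genotype and the 2 of IFNγ, with filled points for an adjusted p under 0.05. Hhip and Gli3 lay at -3.05 and -2.71 without IFNγ and at -3.12 and -2.70 with IFNγ, far from the other members, and in the untreated experiment at -0.32 and -0.94.

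Gene positions are given on GRCm39. Among the ligands, Shh (Sonic hedgehog, chr5:28661813-28672254, minus strand) was close to the limit of detection. It had 0 and 1 counts in the sgCtrL libraries of the untreated experiment and 7 and 7 in the Sin3Bsg1 libraries. The ratio of the summed counts (14 against 1) was 13.2, with an exact 95% interval of 2.01 to 558 that covers counting error only. The interval pools the 2 libraries of each genotype and is a description, not a test, since Shh belongs to the chosen set. In the IFNγ experiment Shh had 1 count over the 12 libraries, in a Sin3Bsg1 library with IFNγ, so the difference of the untreated experiment had no counterpart there. Ihh (Indian hedgehog, chr1:74984474-74990837, minus strand) had 3 to 15 counts per library. Its log2 difference between Sin3Bsg1 and sgCtrL was 0.07 (SE 0.74) in the untreated experiment, -0.35 (SE 0.46) without IFNγ and -0.25 (SE 0.50) with IFNγ, and the libraries of the 2 genotypes overlapped in all 3. At this depth no difference of Ihh was detectable, and in the untreated experiment its value ran from -1.44 without replicate 1 of Sin3Bsg1 to 0.78 without replicate 2 of Sin3Bsg1.

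Ptch1 (Patched 1, chr13:63656142-63721412, minus strand), the main receptor, which represses Smo when no ligand is bound and is itself a known target of GLI factors, varied little. It had 49.96 and 48.9 CPM in sgCtrL and 47.1 and 48.7 CPM in Sin3Bsg1 of the untreated experiment. Without IFNγ it had 50.6, 50.01 and 45.9 CPM in sgCtrL and 55.7, 48.0 and 53.7 CPM in Sin3Bsg1, and with IFNγ 39.8, 46.5 and 47.3 CPM against 53.6, 43.9 and 40.8 CPM. The genotypes overlapped in the IFNγ experiment. The log2 differences were -0.05 (SE 0.05), 0.10 (SE 0.09) and 0.05 (SE 0.09), none past the threshold.

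Hhip (Hedgehog-interacting protein), a membrane protein that binds and sequesters ligand, showed the widest range of the set. It had 1.14 and 1.36 CPM in sgCtrL of the untreated experiment and 0.872 and 1.13 CPM in Sin3Bsg1, from 28 to 40 counts per library. In the IFNγ experiment without IFNγ it had 22.2, 20.4 and 22.4 CPM in sgCtrL and 2.86, 2.96 and 2.02 CPM in Sin3Bsg1. With IFNγ the values were 18.05, 13.8 and 17.3 CPM in sgCtrL and 2.05, 1.49 and 2.10 CPM in Sin3Bsg1. Every sgCtrL library of the IFNγ experiment thus held several times more Hhip than every Sin3Bsg1 library, whereas in the untreated experiment the lower sgCtrL library and the higher Sin3Bsg1 library were nearly level. The difference was -3.05 on the log2 scale (SE 0.15, 8.26-fold) without IFNγ and -3.12 (SE 0.16, 8.68-fold) with IFNγ. Of 14913 genes tested, 12 without IFNγ and 15 with IFNγ, Hhip included, were at least as far lower. In the untreated experiment it was -0.32 (SE 0.34), not past the threshold, and 1780 of 14589 genes were at least as far lower. The values in the IFNγ experiment moved only between -3.14 and -2.89 without IFNγ and between -3.23 and -2.97 with IFNγ over the 19 alternative fits of each, and were -3.03 with IFNγ without replicate 1 of sgCtrL and -3.19 without replicate 1 of Sin3Bsg1.

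Smo (Smoothened, chr6:29735407-29762532, plus strand), the membrane protein that carries the signal onward when Patched is bound by ligand, was lower in Sin3Bsg1 by a small step that recurred. It had 103 and 105 CPM in sgCtrL and 78.5 and 77.5 CPM in Sin3Bsg1 of the untreated experiment. Without IFNγ it had 98.7, 98.7 and 95.9 CPM in sgCtrL and 78.6, 86.4 and 79.0 CPM in Sin3Bsg1, and with IFNγ 87.9, 82.5 and 80.1 CPM against 70.5, 71.7 and 67.6 CPM. The genotypes overlapped in none of the 3 comparisons. The differences were -0.42 (SE 0.04), -0.27 (SE 0.05) and -0.25 (SE 0.05) on the log2 scale, and -0.20 with IFNγ when replicate 1 of sgCtrL with IFNγ was left out or -0.26 without that of Sin3Bsg1.

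Sufu (Suppressor of fused, chr19:46385324-46477243, plus strand), which binds GLI proteins in the cytoplasm and holds them back, differed less. Sufu had 61.0 and 64.0 CPM in sgCtrL of the untreated experiment and 58.2 and 55.6 CPM in Sin3Bsg1, a log2 difference of -0.13 (SE 0.05). That call was lost with DESeq2 (-0.14), without replicate 2 of Sin3Bsg1 (-0.10) and without replicate 2 of sgCtrL (-0.10). In the IFNγ experiment the genotypes overlapped, with differences of 0.00 (SE 0.07) without IFNγ and 0.02 (SE 0.07) with IFNγ.

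Of the GLI transcription factors, Gli2 (chr1:118761858-118982598, minus strand) had 0 counts in all 16 libraries, which allows at most 0.00756 CPM when 3 counts over the summed libraries are taken as the limit, and 0.0935 to 0.165 CPM in a single library. Gli1 (chr10:127165751-127177865, minus strand), the activator that the pathway itself induces, had 7 to 37 counts per library. Gli1 had 0.739 and 0.851 CPM in sgCtrL of the untreated experiment and 0.592 and 0.453 CPM in Sin3Bsg1. Without IFNγ the values were 0.378, 0.584 and 1.28 CPM in sgCtrL and 1.41, 0.827 and 0.602 CPM in Sin3Bsg1, and with IFNγ 0.447, 0.831 and 0.315 CPM against 0.961, 1.21 and 1.37 CPM. Both Sin3Bsg1 libraries were below both sgCtrL libraries in the untreated experiment, the genotypes overlapped without IFNγ, and all 3 Sin3Bsg1 libraries were above all 3 sgCtrL libraries with IFNγ. The log2 differences were -0.60 (SE 0.43), 0.36 (SE 0.47) and 1.12 (SE 0.47), none past the threshold, and without replicate 1 of Sin3Bsg1 the middle value turned to -0.06.

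Gli3, the factor that acts mostly as a repressor, resembled Hhip. It had 3.13 and 4.25 CPM in sgCtrL and 1.90 and 1.94 CPM in Sin3Bsg1 of the untreated experiment. Without IFNγ it had 8.90, 10.1 and 10.5 CPM in sgCtrL and 1.60, 1.52 and 1.38 CPM in Sin3Bsg1, and with IFNγ 8.999, 9.94 and 10.7 CPM against 1.88, 1.49 and 1.16 CPM. The genotypes overlapped in none of the 3 comparisons. Its log2 difference was -0.94 (SE 0.23, 1.92-fold) in the untreated experiment, -2.71 (SE 0.16, 6.54-fold) without IFNγ and -2.70 (SE 0.16, 6.52-fold) with IFNγ. The first call was lost without replicate 2 of sgCtrL, where the value was -0.70, whereas the other values lay between -2.78 and -2.65 and between -2.89 and -2.55. Without replicate 1 of sgCtrL with IFNγ the last was -2.75, and without replicate 1 of Sin3Bsg1 with IFNγ it was -2.89.

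The levels in the control cells differed between the experiments. The tables were normalized separately and no test joins them, so these levels are only set side by side. In sgCtrL, Hhip had 21.7 ± 1.10 CPM (SD, n = 3) without IFNγ and 1.25 ± 0.155 CPM (SD, n = 2) in the untreated experiment, a ratio of 16.1 after adding 0.1 CPM to both, and 52 of the 13848 genes tested in both experiments (0.376%) lay at least as far apart in either direction. Gli3 had 9.85 ± 0.848 CPM (SD, n = 3) against 3.69 ± 0.798 CPM (SD, n = 2), a ratio of 2.62, with 5.89% of genes at least as far apart. For Ptch1, Smo and Sufu the ratio of the sgCtrL levels was between 1.01 and 1.06. In Sin3Bsg1 the 2 experiments were closer for these genes, with 2.61 and 1.003 CPM for Hhip and 1.499 and 1.92 CPM for Gli3.

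Fibroblast markers also stood at other levels in these tables. Their 8 genes summed to 101 CPM in both sgCtrL libraries and 30.6 to 33.6 CPM in Sin3Bsg1 of the untreated experiment, and to 262 to 269 against 224 to 234 CPM without IFNγ and 189 to 192 against 166 to 178 CPM with IFNγ. Pdgfra and Pdgfrb made up nearly all of this, and the sum follows Pdgfra. Pdgfra was lower in Sin3Bsg1 in all 3 comparisons (-1.78, -0.26 and -0.21), whereas Pdgfrb was lower in the untreated experiment (-1.14) and higher without and with IFNγ (0.19 and 0.27), all past the threshold. The 4 fibroblast markers tested had a median of -0.953 in the untreated experiment, 0.315 without and 0.0749 with IFNγ. The lower sum of the IFNγ experiment was thus not shared by the list. Acta2 had 0.44 without and -0.12 with IFNγ, neither past the threshold. With IFNγ against without, Acta2 rose while the sum fell, from 0.314 to 5.67 CPM in sgCtrL and from 0.446 to 5.23 CPM in Sin3Bsg1. Lum and Fap had 3 counts or fewer in each library of both experiments, as had Dcn and Thy1 in the IFNγ experiment. The summed ductal markers went the other way, with 4600 to 4620 CPM in sgCtrL of the untreated experiment and 2990 to 3030 CPM in sgCtrL without IFNγ, and were higher in Sin3Bsg1 (6190 to 6250 and 3220 to 3320 CPM). The part of these markers in the Hhip and Gli3 values was not tested. In bulk RNA fewer cells that express a gene and less RNA per cell cannot be told apart.

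With against without IFNγ, 3 of 7 members in sgCtrL were lower and 0 higher past the threshold, where 30.2% of genes passed (15.7% higher and 14.5% lower), and 3 did not overlap, against 41.5% of genes. In Sin3Bsg1, 1 member was lower and 0 higher, where 28.4% of genes passed (16.1% higher and 12.3% lower), and 2 did not overlap, against 45.4%. The comparisons within each genotype share their groups with the genotype comparisons above. Smo was lower with IFNγ in both genotypes, by -0.23 (SE 0.05) in sgCtrL and -0.22 (SE 0.05) in Sin3Bsg1 on the log2 scale. Sufu was lower by -0.19 (SE 0.07) in sgCtrL, past the threshold, and its value in Sin3Bsg1 was -0.17 (SE 0.07), not past it, although its libraries overlapped in neither genotype. Both Sufu results lay near the threshold, since 9 of 19 alternative fits changed the call in each genotype, with values of -0.26 to -0.14 in sgCtrL and -0.26 to -0.13 in Sin3Bsg1. Hhip was lower by -0.41 (SE 0.12) in sgCtrL, and this call was lost without replicate 1 of sgCtrL without IFNγ (-0.39), without its replicate 3 (-0.38) and without replicate 2 of sgCtrL with IFNγ (-0.30). In Sin3Bsg1 the Hhip value was -0.48 (SE 0.19), not past the threshold, but past it without replicate 3 of Sin3Bsg1 without IFNγ (-0.63) or replicate 2 of sgCtrL with IFNγ (-0.50), without the composition factor (-0.56) and without the filter on low counts (-0.49). Ptch1 was -0.13 (SE 0.09) in sgCtrL and -0.19 (SE 0.09) in Sin3Bsg1, neither past the threshold, and the second passed it at -0.34 without replicate 1 of Sin3Bsg1 with IFNγ, at -0.27 without the composition factor and at -0.20 without the filter. Gli3 was level, at 0.01 in both genotypes (SE 0.13 in sgCtrL and 0.20 in Sin3Bsg1), with -0.20 in Sin3Bsg1 when its replicate 1 with IFNγ was left out.

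The interaction, which asks whether the effect of IFNγ differed between the genotypes, passed the threshold for 0 of 7 members in edgeR, where 0.114% of genes passed. By DESeq2 0 members passed, and at an unadjusted p under 0.05 also 0. Interaction values were -0.07 (SE 0.23) for Hhip, 0.00 (SE 0.24) for Gli3, 0.01 (SE 0.07) for Smo and 0.76 (SE 0.67) for Gli1 on the log2 scale. The SE of Gli1 leaves room for a large difference in either direction.

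The rest of the pathway was described by 5 lists of 58 genes in all, of which the untreated experiment tested 45 and the IFNγ experiment 46. The lists were not picked for how their genes moved, but earlier results of these data were known. Their counts and adjusted p values are therefore descriptive. In the untreated experiment 21 of the 45 were lower and 6 higher past the threshold, where 31.1% of all genes passed (15.1% higher and 16% lower). The median log2 difference was -0.16, against 0.00 for all genes. Without IFNγ 9 of the 46 were lower and 6 higher (median -0.07, all genes -0.01), where 17.2% of all genes passed (7.89% higher and 9.33% lower). With IFNγ 7 were lower and 5 higher (median -0.06, all genes 0.00), where 16.5% passed (8.62% higher and 7.90% lower). IFNγ itself left 13 lower and 2 higher in sgCtrL, where 30.2% of all genes passed (15.7% higher and 14.5% lower). In Sin3Bsg1 13 were lower and 2 higher, where 28.4% passed (16.1% higher and 12.3% lower). For IFNγ the lists' total share (15 of 46 in each genotype) was thus near that of all genes. There the list genes that passed were mostly lower, unlike those over all genes. For genotype the total share was above that of all genes, with 27 of 45 in the untreated experiment, 15 of 46 without and 12 of 46 with IFNγ. The list genes that passed were mostly lower in the untreated experiment and more mixed in the IFNγ experiment. For the interaction 0 of the 46 passed by edgeR and 0 by DESeq2, and 3 had an unadjusted p under 0.05, as had 810 of the 14913 genes.

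**Figure D3:**
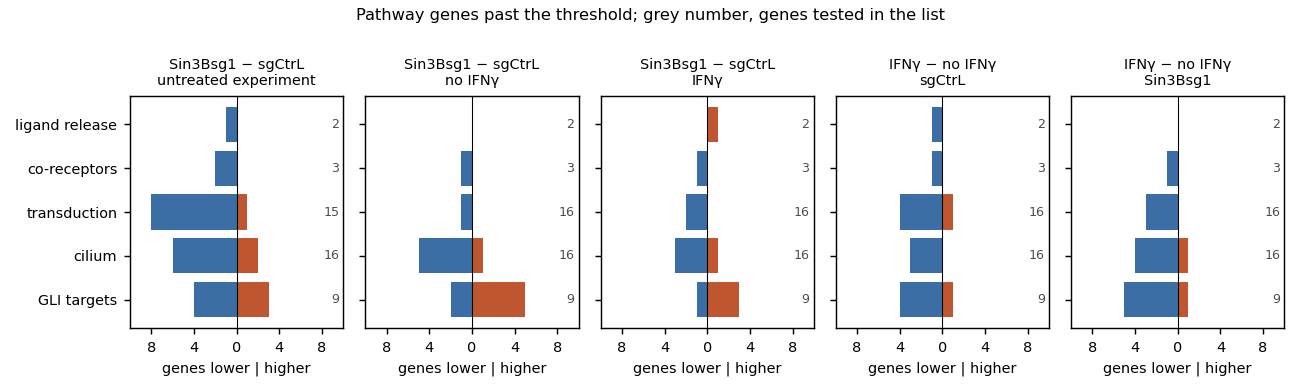
For each of the 5 pathway lists, bars give the number of genes past an adjusted p of 0.05 (horizontal axis), lower to the left in blue and higher to the right in orange, with the number tested in grey. The untreated experiment holds the most lower genes, 8 of 15 in the transduction list, where 16% of all genes were lower. Without IFNγ the GLI target list had 5 higher and 2 lower of 9, where 7.89% of all genes were higher and 9.33% lower.

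Ligand handling was represented by Dhh (Desert hedgehog) and Disp1 (Dispatched 1, which releases ligand from the producing cell), the 2 of 7 genes tested. Dhh had 5.97 ± 0.603 CPM in sgCtrL and 6.96 ± 0.951 CPM in Sin3Bsg1 (SD, n = 2) of the untreated experiment, and with 2.89 ± 0.287 TPM in sgCtrL (SD, n = 2) it was the most abundant of the 3 ligands there. With IFNγ it had 0.712 ± 0.0870 CPM in sgCtrL and 1.53 ± 0.106 CPM in Sin3Bsg1 (SD, n = 3), a rise of 1.10 on the log2 scale (edgeR adjusted p = 0.0232), while its 0.77 without IFNγ did not pass. The call was lost without replicate 2 (1.09) or 3 (1.05) of Sin3Bsg1 with IFNγ and without replicate 2 of sgCtrL with IFNγ (1.06). Disp1 fell in Sin3Bsg1 of the untreated experiment (-0.29, edgeR adjusted p = 0.00046) and with IFNγ in sgCtrL (-0.30, edgeR adjusted p = 0.00158).

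Among the co-receptors, of which 3 of 5 were tested, 2 fell in the untreated experiment and 0 rose, where 16% and 15.1% of all genes did. Boc, a co-receptor that binds ligand, went from 3.13 ± 0.187 to 1.10 ± 0.143 CPM (SD, n = 2), a fall of -1.51 on the log2 scale (edgeR adjusted p = 0.000262). Gas1, another ligand co-receptor, fell in Sin3Bsg1 in all 3 comparisons, by -0.90, -0.31 and -0.53 (edgeR adjusted p = 8.08e-10, 0.0169 and 0.000401). Its call without IFNγ was lost without replicate 2 (-0.31) or 3 (-0.25) of Sin3Bsg1 and without replicate 2 (-0.30) or 3 (-0.31) of sgCtrL. Gas1 also fell with IFNγ in both genotypes (-0.34 and -0.57, edgeR adjusted p = 0.00551 and 9.75e-05).

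Transduction from Smo to the GLI factors was covered by 18 genes. In the untreated experiment 8 of 15 tested fell and 1 rose, where 31.1% of all genes passed (15.1% higher and 16% lower). The largest falls were those of Kif7 (-0.85, edgeR adjusted p = 0.0018), a ciliary kinesin that regulates GLI proteins, and Gpr161 (-0.73, edgeR adjusted p = 5.28e-05), a ciliary receptor that dampens the pathway. Stk36 (-0.42, edgeR adjusted p = 0.0142) and Tulp3 (-0.24, edgeR adjusted p = 0.000605), which brings receptors such as Gpr161 into the cilium, fell as well, although the Stk36 call was lost without replicate 2 of Sin3Bsg1 (-0.37) or of sgCtrL (-0.35) and by DESeq2 (-0.42). Without IFNγ 1 of 16 fell, Gpr161 (-0.32, edgeR adjusted p = 0.0107), where 9.33% of all genes were lower. With IFNγ 2 of 16 fell, of which Tulp3 had the larger value (-0.26, edgeR adjusted p = 0.0166), where 7.90% of all genes were lower. The Tulp3 call was lost (-0.15) without replicate 1 of sgCtrL with IFNγ, the library that stood apart, and in a fit of only the 6 libraries with IFNγ (-0.27). With IFNγ against without, Stk36 fell in both genotypes (-0.51 and -0.57, edgeR adjusted p = 0.0123 and 0.00739), and Hhipl1, a gene related to Hhip by sequence, fell in sgCtrL (-1.16, edgeR adjusted p = 0.00299). Tulp3 rose in sgCtrL (0.30, edgeR adjusted p = 0.00356), and Btrc, part of the ubiquitin ligase that starts GLI processing, fell there (-0.22, edgeR adjusted p = 0.00905). Prkacb and Gsk3b, kinases that phosphorylate GLI proteins for processing, fell with IFNγ in Sin3Bsg1 (-0.17 and -0.18, edgeR adjusted p = 0.0118 and 0.0227), and the Gsk3b call was lost in 3 of 19 alternative fits. In sgCtrL Prkacb fell with IFNγ as well (-0.14, edgeR adjusted p = 0.0307), and Gsk3b had -0.15, just short of the threshold (edgeR adjusted p = 0.0501). Between the genotypes with IFNγ, the other gene lower in Sin3Bsg1 than in sgCtrL was Prkacb (-0.14), a call lost in 13 of 19 alternative fits.

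All 16 genes of the cilium list were tested, and differences were small. In Sin3Bsg1 of the untreated experiment 6 fell and 2 rose, without IFNγ 5 fell and 1 rose, and with IFNγ 3 fell and 1 rose. Over all genes 31.1%, 17.2% and 16.5% passed in these comparisons (16%, 9.33% and 7.90% lower). Wdr19, a subunit of the intraflagellar transport machinery, fell in all 3 (-0.39, -0.32 and -0.19, edgeR adjusted p = 0.000284, 0.00093 and 0.0301) and also with IFNγ in both genotypes (-0.34 and -0.21, edgeR adjusted p = 0.000295 and 0.00994). Ift140, a partner of Wdr19 in the same complex, rose in all 3 (0.17, 0.34 and 0.29, edgeR adjusted p = 0.0113, 0.000559 and 0.00209). Bbs4 rose in the untreated experiment (0.62, edgeR adjusted p = 0.00171), and Bbs1 fell in the IFNγ experiment without and with IFNγ (-0.54 in both, edgeR adjusted p = 0.0341 and 0.0308). The Bbs1 calls were lost in 6 and 5 of the 19 alternative fits, with values of -0.71 to -0.40 and -0.69 to -0.46, and the Wdr19 call with IFNγ in 7 of 19, with -0.23 to -0.15. Tctn1, of the zone at the base of the cilium, fell in the untreated experiment (-0.37, edgeR adjusted p = 0.00311) and without IFNγ (-0.34, edgeR adjusted p = 0.0169), the latter call lost in 3 of 19 alternative fits. Ift172 and Ift80 are also parts of the transport machinery. Ift172 fell in the untreated experiment (-0.28, edgeR adjusted p = 0.00109). Ift80 fell in all 3 comparisons (-0.13, -0.27 and -0.21, edgeR adjusted p = 0.0276, 0.000706 and 0.00506). With IFNγ against without, Ift122 fell in both genotypes (-0.25 and -0.19, edgeR adjusted p = 0.00737 and 0.0331), Dync2h1, the motor of the return transport, fell in sgCtrL (-0.38, edgeR adjusted p = 0.0424), and in Sin3Bsg1 Kif3a fell (-0.19, edgeR adjusted p = 0.0352) and Arl13b rose (0.25, edgeR adjusted p = 0.00479). Of these calls, those of Dync2h1, of Kif3a and of Ift122 in Sin3Bsg1 were lost in 11, 4 and 4 of 19 alternative fits.

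Of 12 known GLI targets outside the set, 9 were tested. The untreated experiment had 4 lower and 3 higher past the threshold, without IFNγ 2 were lower and 5 higher, and with IFNγ 1 was lower and 3 higher. Over all genes 31.1%, 17.2% and 16.5% passed in these comparisons (16%, 9.33% and 7.90% lower, and 15.1%, 7.89% and 8.62% higher). Snai1, a repressor of E-cadherin, fell from 12.2 ± 0.108 to 3.12 ± 0.401 CPM (SD, n = 2) in the untreated experiment (-1.97, edgeR adjusted p = 1.51e-08), whereas its values without and with IFNγ were -0.01 and 0.04, not past the threshold. Foxf1, a mesenchymal forkhead factor, rose from 3.44 ± 0.681 to 9.44 ± 0.763 CPM (SD, n = 3) without IFNγ (1.47, edgeR adjusted p = 7.67e-06) and from 4.61 ± 0.801 to 12.1 ± 1.20 CPM (SD, n = 3) with IFNγ (1.40, edgeR adjusted p = 7.23e-06). Jag2, a Notch ligand, fell in all 3 comparisons (-0.26, -0.81 and -0.64, edgeR adjusted p = 0.000132, 9.7e-06 and 0.000108). Ccnd1 and Ccnd2, the cyclins of the G1 phase, rose in all 3, Ccnd1 by 0.22, 0.43 and 0.38 and Ccnd2 by 0.28, 0.48 and 0.34 (edgeR adjusted p between 1.88e-08 and 2.82e-05). Mycn, a proto-oncogene, fell in the untreated experiment (-0.69, edgeR adjusted p = 2.65e-05) and rose without IFNγ (0.56, edgeR adjusted p = 0.000825). Grem1, a BMP antagonist, fell in the untreated experiment (-0.40, edgeR adjusted p = 8.71e-11) and without IFNγ (-0.31, edgeR adjusted p = 0.014). With IFNγ against without, Snai1 fell in both genotypes (-0.50 and -0.45, edgeR adjusted p = 0.00206 and 0.00402), as did Bcl2, an inhibitor of apoptosis (-0.36 and -0.48, edgeR adjusted p = 0.00102 and 5.52e-05). Likewise Mycn fell in both genotypes (-0.40 and -0.97, edgeR adjusted p = 0.00914 and 1.72e-06) and Ccnd1 rose in both (0.44 and 0.39, edgeR adjusted p = 8.08e-07 and 2.81e-06). The targets thus went in both directions within a comparison, and of the known targets within the set Gli1 and Ptch1 passed in none, while Hhip was lower past the threshold in 3 comparisons, those of genotype without and with IFNγ and that of IFNγ in sgCtrL.

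**Figure D4:**
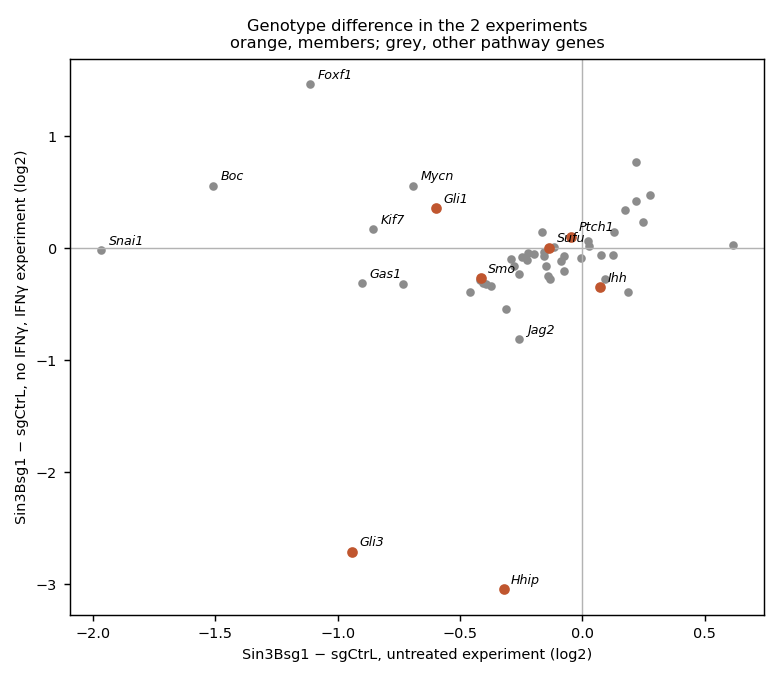
Each point is 1 gene, with its log2 difference between Sin3Bsg1 and sgCtrL in the untreated experiment on the horizontal axis and without IFNγ in the IFNγ experiment on the vertical axis, for the 7 members tested (orange) and 45 other pathway genes (grey). Hhip and Gli3 lie far below 0 on the vertical axis, while Snai1 and Boc lie far to the left with -0.01 and 0.56 on the vertical axis.

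The genes whose pattern was most like a member were found by the root mean square difference of the 5 log2 differences (3 of genotype and 2 of IFNγ), among about 12069 genes with a mean of at least 1 CPM in both tables, for the members with group means at least 1 log2 unit apart within a table. These 5 differences share groups, and the members were chosen with such differences known, so the measure describes likeness only. For Hhip the nearest gene was Gli3 (0.464), followed by Pcsk5 (0.573) and Pcdh19 (0.667). For Gli3 the nearest were Pcdh19 (0.411), Pcsk5 (0.431) and Hhip (0.464). Pcsk5, a proprotein convertase, and Pcdh19, a protocadherin, had -2.11 and -2.24 without IFNγ, and -1.01 and -0.48 in the untreated experiment. For Gli1 the nearest were Lpl (0.230), Krba1 (0.255) and Zfp112 (0.270), a likeness to values that are themselves uncertain at these counts.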

How the data were processed

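RNA was measured in 16 libraries. The authors deposited estimated counts per gene, unnormalized and not always whole, in 1 table per experiment, with gene lengths and group means (not used here). The study's methods name HISAT2 alignment to mm9 and featureCounts on reads that map to 1 place. The submitters' processing notes instead list fastp, HISAT2, StringTie, DESeq2 and mm39. Versions, annotation and strand setting are not given in the sources used here. Columns named for lacZ, the only guide beside Sin3Bsg1 in each table, were used as the sgCtrL libraries.

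Counts were rounded to whole numbers. From the untreated experiment 324 loci without a gene identifier (0.615 to 0.677% of counts) were left out of library sizes and tests. Totals of 18128055 to 32311721 counts set the precision, and intervals and floors (3 counts) cover counting error only. Differences were tested with the two-sided quasi-likelihood test of edgeR 4.0.16 in R 4.3.3 (filterByExpr, then TMM factors, glmQLFit, glmQLFTest), fitting the 4 untreated libraries and the 12 of the IFNγ experiment apart with a mean per group. Benjamini-Hochberg adjustment ran over all genes tested, with a threshold of 0.05. Counts and deposited lengths gave TPM. The fits were tested on simulated data.

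The members were chosen with earlier results of these data known, so no p is given for them. The lists were also drawn up with those results known, although not picked for how their genes moved. Their counts and adjusted p values are therefore descriptive. Alternatives were DESeq2 1.42.0, RLE factors, no composition factor, no or a stricter filter (10 counts in every library), a replicate block, leaving out each library, and only the 6 libraries of a contrast. Named genes are the members, Sin3b, and per list and comparison the up to 4 largest differences past the threshold among genes averaging 1 CPM or more. Of the lists, 1 gene is not reported here and was left out of the list counts. Genes named outside this rule were chosen after their values were seen. Promoters came from RefSeq (GRCm38.p6) and gene positions from GENCODE vM39 (GRCm39), with no mixing of builds. Python 3.11.15, pandas 2.3.3, numpy 2.4.6, scipy 1.17.1 and matplotlib 3.10.9 were used.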

Additional observations from a re-analysis of the deposited data

Results flagged for a closer look

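The 7 members and 45 list genes tested in both experiments were searched for opposite directions. For 5 of them every Sin3Bsg1 library lay on one side of the sgCtrL libraries in the untreated experiment and on the other side in a comparison of the IFNγ experiment. This difference between the experiments was not tested, and among the 13848 genes tested in both, 6.07% did the same without IFNγ and 4.59% with IFNγ. At these shares a few such genes are found among any genes of this number, so nothing is read from the count. Gli1 had -0.60 on the log2 scale in the untreated experiment and 1.12 with IFNγ, neither past the threshold. Boc had -1.51 (past the threshold) against 0.56 without and 0.62 with IFNγ (neither past it). Foxf1 had -1.11 (not past it, at under 1 CPM) against 1.47 without and 1.40 with IFNγ (both past it). Mycn had -0.69 against 0.56 without IFNγ, both past the threshold, and Spop had 0.13 (past it) against -0.0618 without IFNγ.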

How the results depend on the processing

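The 3 members called without IFNγ and the 3 called with IFNγ kept that number in all alternatives tried, while other counts of members moved. In the untreated experiment leaving out 1 library gave 1 to 3 members called (1 without replicate 2 of sgCtrL, where the lone control library is assumed to vary like the other group). For IFNγ in sgCtrL the count was 1 to 3 when a library was left out (1 without sgCtrL replicate 1 or 3 without IFNγ or replicate 2 with IFNγ). For IFNγ in Sin3Bsg1 it was 1 in the fit reported, 2 by DESeq2, with RLE factors, with at least 10 counts in every library and with only the 6 libraries of the contrast, 4 without the composition factor or without the filter on low counts, and 1 to 3 with a library left out. Genes called over the whole table went from 2568 to 3996 without IFNγ and from 2464 to 1500 with IFNγ when only the 6 libraries were fitted. The interaction, 17 genes in the fit reported, gave 32 by DESeq2, 110 without the filter, and 1 to 33 with a library left out. The interaction of Sin3b, 0.02 on the log2 scale and not past the threshold, ran from -0.0399 (without Sin3Bsg1 replicate 2 with IFNγ) to 0.0534 with a library left out, and was -0.00252 without sgCtrL replicate 2 without IFNγ. The causes were not tested. Same-numbered libraries showed no consistent pairing (correlations of 0.00884 in the untreated experiment and -0.124 to 0.232 in the IFNγ experiment), so the numbers were not taken to pair them. With a replicate block 4675 genes were called in the untreated experiment, 2511 without and 2389 with IFNγ, 4400 and 4207 for IFNγ in the genotypes and 13 for the interaction, and the number of members called was the same in each. Counts per library of 0 to 7 for Shh, and of 3 to 40 for Ihh, Gli1 and untreated Hhip, limit what depth can show for them.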
